A study of Mus musculus with 33 samples.

Results

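The fatty acid binding protein genes Fabp3, Fabp4 and Fabp5 were followed in the interscapular brown fat of mice on a high-fat or a normal diet. They were taken by symbol, and the probe that stands for each gene was chosen by its brightness over all arrays, which is therefore only described. That gave 3 genes of the 9613 tested, with 4 probes in all, from 19057 genes with a probe. Fabp3, on GRCm38.p6 at chr4:130308738-130315463, was read by probe ILMN_2887630, Fabp4, at chr3:10204342-10208616, by ILMN_2615947, and Fabp5, at chr3:10012585-10016610, by ILMN_1235908. A further Fabp5 probe, ILMN_2685290, was not above background on any of the 33 arrays and served only as a check.

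Fatty acid binding proteins are small cytosolic proteins that hold a long-chain fatty acid in a barrel-shaped pocket and carry it between membranes, lipid droplets, mitochondria and the nucleus. FABP3 is the heart and muscle form, which brown adipocytes also make, FABP4 is the adipocyte form, and FABP5 is the epidermal form, which fat and macrophages make as well. Macrophages also make FABP4.

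RNA was taken from the heat-producing fat between the shoulder blades of C57BL/6J mice and hybridised to Illumina bead arrays, which read a transcript as the brightness of a probe. High-fat groups ate, on an AIN-76 semi-purified base, a diet of 39.2 kcal% fat that held 1% cholesterol and 20% fat, for 2, 4, 8, 20 or 24 weeks. Normal diet groups ate the AIN-76 diet and were taken at weeks 0, 2, 4, 8, 20 and 24. Each of the 11 groups held 3 arrays. All animals were kept singly at 24 °C with 12 hours of light, and every sample is listed with an age of 7 weeks whatever its week on the diet. Replicates are numbered in the labels, which do not say whether each was its own animal. A p-value here thus covers the spread from sample to sample, which may be technical. Levels are given as log2 of the background-corrected, quantile-normalized signal, and differences are high-fat minus normal diet on that scale. Probes differ in how they bind, so the level of one probe was not set against that of another.

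Array medians lay between 129 and 183 intensity units, 29.5% to 33.7% of probes were detected, and arrays of 1 group correlated at 0.977 to 0.996 across genes. Week 24 was set apart on both diets. Its array medians were at most 133 units, against at least 139 in the other weeks. On the first principal component, with 35.9% of the variance, its 6 arrays averaged 46.0 on high-fat and 34.4 on normal diet, against -15.1 to 2.70 in the other groups. Time on the diet cannot be told apart from whatever else differed for the arrays of week 24. The 3 high-fat arrays of week 8 were dimmer for bright probes. The summed intensity of 8 brown adipocyte markers there was 139153 to 165767, against 225443 to 233610 on the normal diet arrays of week 8. On high-fat week 20 it was 194051 and 178279 on replicates 1 and 2 and 237082 on replicate 3, against 224672 to 237391 on normal week 20. The diet averages and the differences between the genes are therefore also given without week 24 and without week 8, and the changes over time without week 24. No fit left out the whole of week 20. Of the 9 brown adipocyte markers listed, 8 were measured and Dio2 was detected on 2 arrays. Ucp1, the uncoupling protein that makes heat, was detected on all 33 arrays.

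The probes of the 3 genes differed in how far they stood above background, which bears on how exactly each was measured. Fabp3 had intensities of 21488 to 54242 and ranked between 36 and 197 from the brightest of 45281 probes. The Fabp4 probe had 244 to 696 units and the Fabp5 probe 170 to 364. The Fabp4 probe was thus dim for a gene usually abundant in fat, and how well it binds the Fabp4 transcript was not tested, which limits every Fabp4 value below. Fabp4 was detected on all 33 arrays and Fabp5 on 29. The 4 arrays on which Fabp5 was not detected were 1 each of high-fat week 2, high-fat week 4, normal week 0 and normal week 2, and in each of these groups the other 2 arrays did detect it. Fabp5 has near-identical pseudogene copies, and whether its probe also binds their transcripts was not tested.

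The sequence before the start of Fabp3 is shown, since Fabp3 was the member matched in the promoter table used here. The 250 bases are those at chr4:130308488-130308737 of GRCm38.p6, plus strand, from RefSeq. An E-box and part of the cAMP response element are in capitals.
Fabp3 upstream: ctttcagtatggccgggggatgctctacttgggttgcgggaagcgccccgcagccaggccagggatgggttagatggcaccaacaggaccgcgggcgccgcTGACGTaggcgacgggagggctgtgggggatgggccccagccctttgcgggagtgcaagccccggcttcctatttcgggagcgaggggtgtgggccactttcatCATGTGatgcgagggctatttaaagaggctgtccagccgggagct
Motifs were searched on both strands as spelled here, where N is any base, and variant spellings were not looked for. TGACGT, part of the cAMP response element, stood 1 time, starting 149 bases before the start. It was held by 6.47% of 32851 upstream windows of this length. The E-box, CANNTG, stood 1 time, starting 45 bases before the start, and was held by 66.2% of windows. The nuclear receptor motif AGGTCA, held by 14.0% of windows, was not found in this one. The same was so for the core of the TATA box, TATAAA, held by 12.4%. These matches describe the letters and do not show binding.

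Fabp3 was higher on high-fat diet at every week sampled, by 0.46 to 0.95 log2 units. At week 2 its levels were 15.29, 15.14 and 15.21 on high-fat diet, against 14.47, 14.69 and 14.69 on normal diet. At week 4 they were 15.16, 15.03 and 15.15 on high-fat diet, against 14.48, 14.501 and 14.37 on normal diet. In both early weeks every high-fat array lay above every normal diet array. The difference was 0.59 (SE 0.087, fold 1.51) at week 2, where 1.9% of all genes passed the limma test at an adjusted p of 0.05, and Fabp3 had an adjusted p of 2.99e-04 (Benjamini-Hochberg over 9613 genes). At week 4 it was 0.66 (SE 0.087, fold 1.58, limma adjusted p = 9.77e-05), where 1.2% of genes passed, and Fabp3 had the fourth smallest p of all genes.

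At week 8 Fabp3 stood at 15.21, 15.37 and 15.16 on high-fat diet, against 14.68, 14.88 and 14.80 on normal diet. The groups did not overlap, and the difference was 0.46 (SE 0.087, fold 1.37, limma adjusted p = 0.00835), with 2.1% of genes passing. The intensities before normalization did not show it. They were 29043, 31700 and 23537 on high-fat diet, against 28804, 31855 and 29231 on normal diet, so the groups overlapped. Within its own array, Fabp3 ranked 76 to 94 from the brightest on the high-fat arrays and 120 to 145 on the normal diet arrays. These ranks did not overlap, and they do not depend on the scaling between arrays. The log2 difference and its call at this week do rest on that scaling. The call held with a median shift as well (0.44), and it was lost at 0.40 (adjusted p = 0.0514) without normal week 8 replicate 1.

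At week 20 Fabp3 stood at 15.40, 15.49 and 15.47 on high-fat diet, against 14.86, 15.03 and 14.96 on normal diet. At week 24 it stood at 15.68, 15.78 and 15.52 on high-fat diet, against 14.68, 14.71 and 14.73 on normal diet. No high-fat array of either week fell to the level of a normal diet array of that week. The difference at week 20 was 0.51 (SE 0.087, fold 1.42, limma adjusted p = 9.26e-04), where 4.67% of genes passed. At week 24 it was 0.95 (SE 0.087, fold 1.94, limma adjusted p = 7.49e-09), where 20.3% passed. That value was 0.58 with arrays shifted to 1 median and not quantile normalized. The week 24 intensities before normalization did not overlap either, with 50844, 54242 and 47460 on high-fat diet, against 28644, 29591 and 29406 on normal diet.

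High-fat arrays lay above normal diet arrays at all 5 weeks for Fabp3, which held for 0.541% of the genes tested. As the mean over the 5 weeks, Fabp3 was 0.64 log2 units higher on high-fat diet (SE 0.039, fold 1.55, limma adjusted p = 1.45e-11), with group means averaging 15.34 on high-fat and 14.70 on normal diet. Of all genes, 27.1% passed for this average and 15.4% passed as higher. Of the calls 56.9% were higher ones, or 46.8% after the median shift. Fabp3 had the second smallest p. Without week 24 the average was 0.56 and without week 8 it was 0.68, and both passed. With the median shift the average was 0.54, which also passed.

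**Figure D1:**
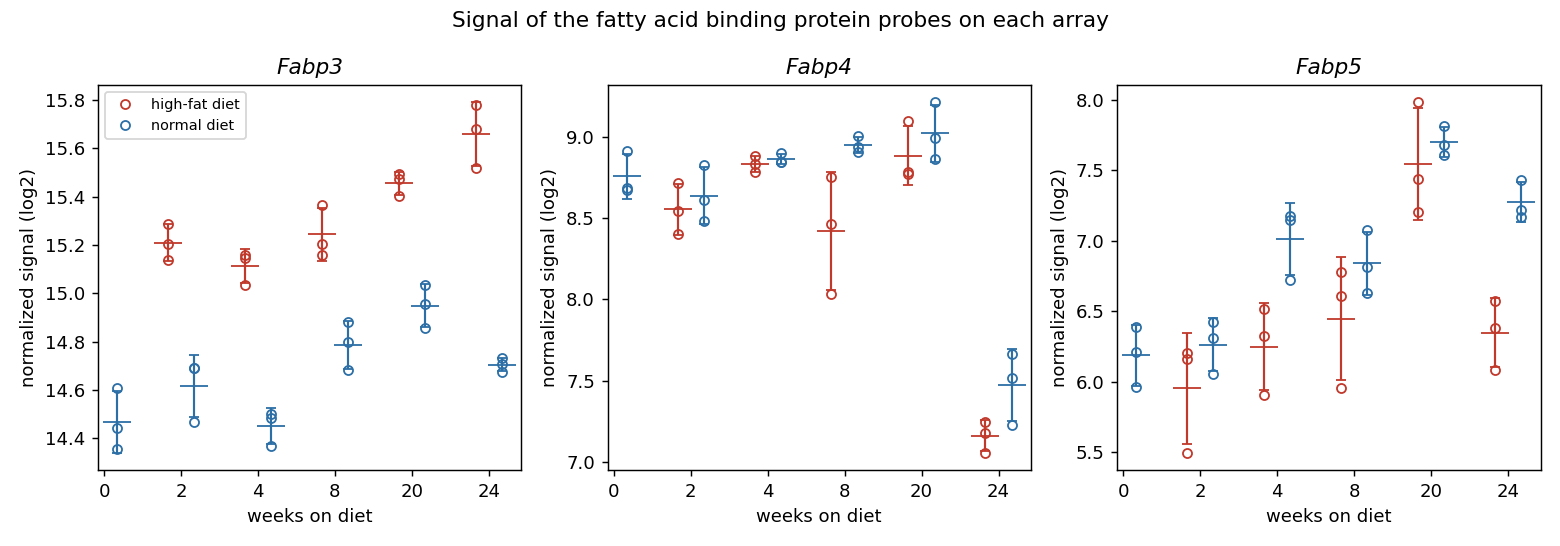
Normalized signal (log2) of Fabp3, Fabp4 and Fabp5 on each of the 33 arrays by week on diet, high-fat diet in red and normal diet in blue. Circles are arrays, horizontal marks are group means and bars are 1 SD (n = 3), and the vertical scales differ between panels. The high-fat arrays of Fabp3 lie above the normal diet arrays of the same week at all 5 weeks, and Fabp4 is low on both diets at week 24.

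Ordered by mean level, the 5 high-fat groups of Fabp3 stood above all 6 normal diet groups. High-fat week 24 came first at 15.66 ± 0.13 (SD, n = 3), then high-fat week 20 at 15.46 ± 0.048 and high-fat week 8 at 15.24 ± 0.11. High-fat week 2 at 15.21 ± 0.076 and high-fat week 4 at 15.11 ± 0.070 followed. Week 24 and week 20 each stood clear of the next group, whereas high-fat weeks 8, 2 and 4 overlapped their neighbours in this order. Normal week 20 at 14.95 ± 0.088 was the highest of the normal diet groups, and its brightest array equalled the dimmest of high-fat week 4 at 15.03. Normal week 8 at 14.79 ± 0.10, week 24 at 14.70 ± 0.028, week 2 at 14.62 ± 0.13, week 0 at 14.47 ± 0.13 and week 4 at 14.45 ± 0.073 followed, each overlapping the next. At week 0, before the diets were compared, the 3 arrays held 14.35, 14.61 and 14.44.

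Fabp3 also changed with time on either diet. The limma F test over the normal diet weeks gave an adjusted p of 1.13e-04, where 66.6% of all genes passed, and that over the high-fat weeks gave 3.91e-05, where 64.4% passed. Weeks 20 and 24 averaged 15.19 over both diets and weeks 2 and 4 averaged 14.85, a rise of 0.34 (SE 0.043, limma adjusted p = 2.1e-07), and 56.6% of genes passed for late against early. Without week 24 the rise was 0.36, and the F tests gave adjusted p of 4.37e-04 over the normal diet weeks and 0.0317 over the high-fat weeks. Whether the diet difference of Fabp3 varied between weeks was not settled. The limma interaction test gave an adjusted p of 0.0566, which did not pass, while 6.38% of genes did. Over the other settings it ran from 0.0200 to 0.758, and it was 0.758 without week 24 and 0.741 with the median shift of all weeks.

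Fabp4 was slightly lower on high-fat diet as an average over weeks, and week 8 was the single week that passed. At week 2 it stood at 8.40, 8.54 and 8.72 on high-fat diet, against 8.61, 8.48 and 8.83 on normal diet. At week 4 it stood at 8.88, 8.79 and 8.83 on high-fat diet, against 8.84, 8.84 and 8.90 on normal diet. The diets overlapped at both weeks, with differences of -0.09 (SE 0.14) and -0.03 (SE 0.14) and limma adjusted p of 0.857 and 0.969. At week 8 the high-fat arrays held 8.04, 8.47 and 8.76, all below the 8.905, 8.94 and 9.005 of the normal diet arrays. This difference was -0.53 (SE 0.14, fold 0.692, limma adjusted p = 0.0426), with 2.1% of genes passing. The high-fat array lowest after normalization weighed most, since the difference was -0.34 (adjusted p = 0.229) without high-fat week 8 replicate 1. Before normalization the high-fat arrays held nearly equal intensities, 384, 374 and 376, and replicate 1 was not the lowest. The normal diet arrays held 693, 671 and 670, so the diets did not overlap. The spread of the high-fat arrays thus appeared with background correction and normalization. The call was lost in 11 of the 33 fits without 1 array, and the adjusted p over all settings ran from 0.00934 to 0.474. The high-fat arrays of week 8 are those that were dimmer for bright probes, and the part of that in this difference was not tested.

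At week 20 Fabp4 held 8.79, 8.77 and 9.10 on high-fat diet, against 8.86, 8.99 and 9.21 on normal diet. At week 24 it held 7.25, 7.18 and 7.06 on high-fat diet, against 7.23, 7.67 and 7.52 on normal diet. The diets overlapped at both weeks, with differences of -0.14 (SE 0.14, limma adjusted p = 0.645) and -0.31 (SE 0.14, limma adjusted p = 0.123). All 6 arrays of week 24 lay below all 27 arrays of the other weeks. The average over 5 weeks was -0.22 (SE 0.063, fold 0.860, limma adjusted p = 0.0104), where 27.1% of all genes passed. It did not pass without week 24 (-0.20, adjusted p = 0.0625) or without week 8 (-0.14, adjusted p = 0.0867), and over all settings the adjusted p ran from 0.00180 to 0.0867.

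The change of Fabp4 over the weeks rested on week 24, whose arrays also had the lowest medians. The part of that in the change was not tested. High-fat groups from week 2 to week 24 averaged 8.55 ± 0.16, 8.83 ± 0.048, 8.42 ± 0.36, 8.89 ± 0.18 and 7.16 ± 0.095 (SD, n = 3 each). Normal diet groups from week 0 to week 24 averaged 8.76 ± 0.14, 8.64 ± 0.17, 8.86 ± 0.032, 8.95 ± 0.051, 9.02 ± 0.18 and 7.47 ± 0.22 (SD, n = 3 each). The groups of weeks 0 to 20 overlapped their neighbours in order of mean, and both week 24 groups stood below them. Over the high-fat weeks the limma F test gave an adjusted p of 3.32e-10, where 64.4% of all genes passed. Over the normal diet weeks it gave 5.2e-09, where 66.6% passed. Without week 24 these adjusted p were 0.0384 and 0.156. Weeks 20 and 24 averaged 8.13 and weeks 2 and 4 averaged 8.72, a difference of -0.59 (SE 0.070, limma adjusted p = 8.45e-08), where 56.6% of genes passed. It was -0.37 with no background correction, and without week 24 the sign turned, to 0.23 (adjusted p = 0.0431). In order of mean, each neighbouring pair from normal week 20 down to high-fat week 8 differed by less than the larger of their SDs. The adjusted p of the diet by week interaction was 0.345.

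Fabp5 was lower on high-fat diet as an average over weeks, and week 24 was the single week that passed. At week 2 it stood at 6.16, 6.20 and 5.496 on high-fat diet, against 6.42, 6.31 and 6.06 on normal diet. At week 4 it stood at 5.91, 6.32 and 6.52 on high-fat diet, against 7.15, 7.17 and 6.72 on normal diet. The diets overlapped at week 2 (-0.31, SE 0.22, limma adjusted p = 0.569) and did not at week 4. The week 4 difference was -0.76 (SE 0.22, fold 0.589) and did not pass (limma adjusted p = 0.0747), and over all settings its adjusted p ran from 0.0401, without high-fat week 8 replicate 1, to 0.299.

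At week 8 Fabp5 held 5.95, 6.61 and 6.78 on high-fat diet, against 7.08, 6.81 and 6.63 on normal diet. At week 20 it held 7.98, 7.21 and 7.44 on high-fat diet, against 7.81, 7.61 and 7.68 on normal diet. After normalization the diets overlapped at both weeks. The differences were -0.39 (SE 0.22, limma adjusted p = 0.356) and -0.16 (SE 0.22, limma adjusted p = 0.754). Before normalization the week 8 intensities did not overlap, at 194.9 to 195.8 on high-fat diet against 243.6 to 302.7 on normal diet. The spread of these high-fat arrays thus appeared with background correction and normalization. Ranks within the array did overlap, at 12069 to 15170 on high-fat diet and 11145 to 12570 on normal diet. At week 24 Fabp5 held 6.08, 6.38 and 6.57 on high-fat diet, all below the 7.43, 7.22 and 7.16 of normal diet. That difference was -0.93 (SE 0.22, fold 0.527, limma adjusted p = 0.00311), where 20.3% of genes passed. The intensities before normalization, 178 to 208 on high-fat diet against 246 to 267 on normal diet, did not overlap either. With no background correction the difference was -0.41.

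As the mean over 5 weeks Fabp5 was lower on high-fat diet, at -0.51 (SE 0.098, fold 0.702, limma adjusted p = 3.19e-04), where 27.1% of all genes passed. It passed without week 24 (-0.41, adjusted p = 0.0181) and without week 8 (-0.54, adjusted p = 4.33e-04) as well. The size of this average depended on how background was treated. It was -0.21 with no background correction and -0.27 from the authors' deposited log2 values, and both passed. High-fat arrays lay wholly above or below normal diet arrays at 5 weeks for Fabp3, at 1 for Fabp4 and at 2 for Fabp5, against 25.2% of all pairs of a gene and a week.

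Fabp5 was higher in late than in early weeks as a mean over both diets, which were not tested apart. On high-fat diet week 20 was high, while week 24 lay near week 4. High-fat groups from week 2 to week 24 averaged 5.95 ± 0.40, 6.25 ± 0.31, 6.45 ± 0.44, 7.54 ± 0.40 and 6.35 ± 0.25 (SD, n = 3 each). Normal diet groups from week 0 averaged 6.19 ± 0.21, 6.26 ± 0.19, 7.01 ± 0.25, 6.84 ± 0.23, 7.70 ± 0.10 and 7.27 ± 0.14 (SD, n = 3 each). Week 20 was the highest week on both diets, and the groups overlapped their neighbours in order of mean throughout. Adjusted p of the limma F test was 1.01e-05 over the high-fat weeks and 7.76e-06 over the normal diet weeks, and 2.14e-04 and 1.49e-04 without week 24. With all weeks, 64.4% and 66.6% of all genes passed these 2 tests. Weeks 20 and 24 averaged 7.21 and weeks 2 and 4 averaged 6.37, a rise of 0.85 (SE 0.11, fold 1.80, limma adjusted p = 3.25e-07), where 56.6% of genes passed. The rise was 1.25 without week 24 and 0.38 with no background correction. The diet by week interaction did not pass, with an adjusted p of 0.337.

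**Figure D2:**
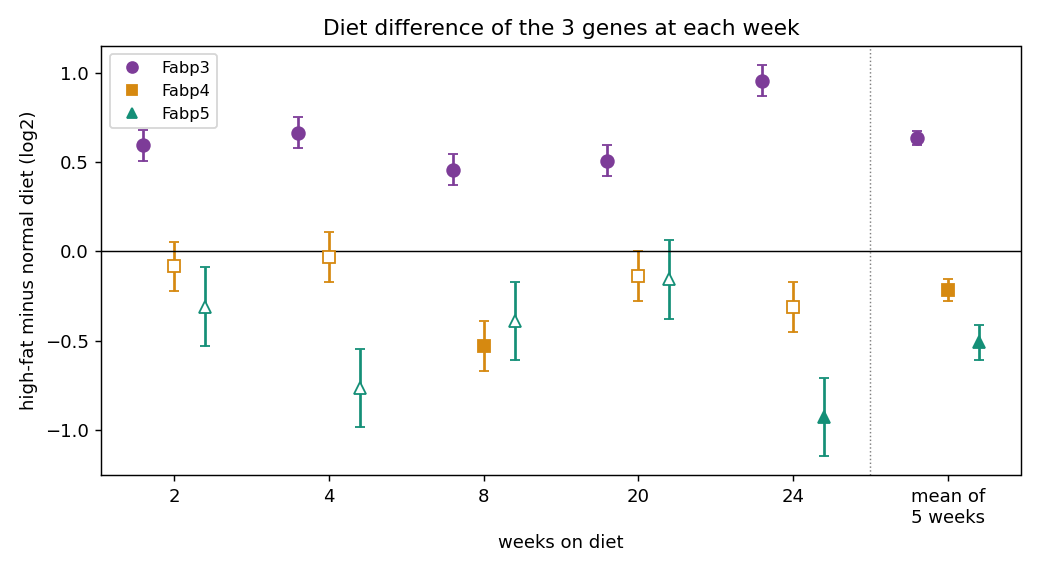
High-fat minus normal diet (log2) of Fabp3, Fabp4 and Fabp5 at each week and as the mean of 5 weeks, with bars of 1 SE from the fit over all genes. Filled marks passed at an adjusted p of 0.05 and open marks did not. Fabp3 is above 0 throughout, from 0.46 to 0.95, while Fabp4 and Fabp5 are below 0 throughout.

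The 3 genes were then compared through the log2 difference of each pair on the same array, which cancels the brightness that the pair shares. The statistic was high-fat minus normal diet averaged over the 5 weeks, tested by an exact two-sided permutation of the diets within weeks over 15 arrays on each diet, with 3200000 arrangements and p adjusted over the 3 pairs. The 3 genes were chosen with earlier results of these data known, a choice that these p-values do not cover. The pairs also restate the diet differences given above for each gene. Fabp3 minus Fabp4 was 0.85 higher on high-fat diet (exact p = 6.25e-07, the smallest that these arrangements can give, and 1.88e-06 adjusted), and all high-fat arrays lay above all normal diet arrays at 5 of 5 weeks. From week 2 to week 24 the differences were 0.68, 0.69, 0.99, 0.64 and 1.26. Fabp3 minus Fabp5 was 1.14 higher (exact p = 1.25e-06, and 1.88e-06 adjusted), without overlap at 4 of 5 weeks, with weekly differences of 0.90, 1.43, 0.85, 0.67 and 1.88. At week 20 the lowest high-fat array of Fabp3 minus Fabp5 lay among the normal diet arrays, and single weeks were not tested. Both averages passed without week 24 (0.75 and 0.96) and without week 8 (0.82 and 1.22).

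Fabp5 and Fabp4 were less clearly apart. Fabp5 minus Fabp4 was -0.29 on high-fat diet relative to normal diet (exact adjusted p = 0.0410). The weekly differences from week 2 to week 24 were -0.22, -0.74, 0.14, -0.02 and -0.62, so week 8 ran the other way. In 14 of 30 fits without 1 array it did not pass. The difference was -0.06 with no background correction and -0.21 without week 24, and neither passed (exact adjusted p = 0.381 and 0.179, within a range over all settings of 0.0106 to 0.381). Without week 8 it was -0.40 (exact adjusted p = 0.0196).

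**Figure D3:**
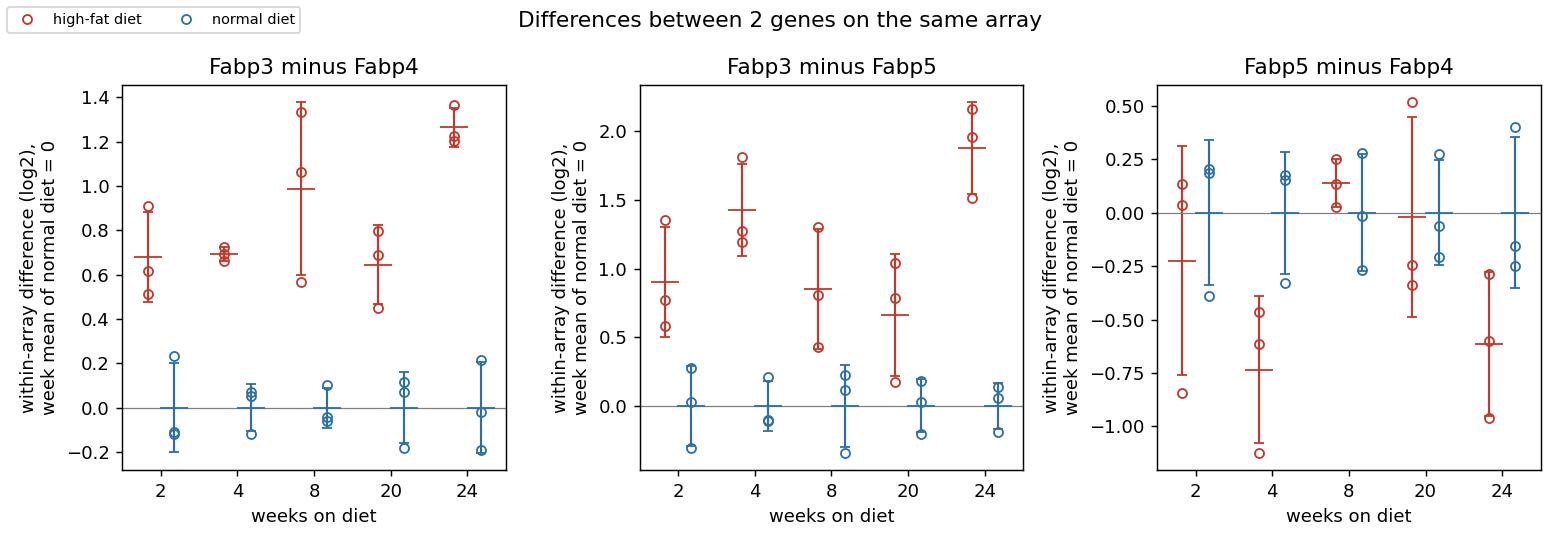
Log2 difference between 2 genes on the same array by week, high-fat diet in red and normal diet in blue, with the normal diet mean of each week set to 0. Circles are arrays, horizontal marks are means and bars are 1 SD (n = 3). Fabp3 minus Fabp4 lies above the normal diet arrays at all 5 weeks, and Fabp5 minus Fabp4 changes sign between weeks.

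Across the 33 arrays, which share 1 normalization, Fabp3 and Fabp5 had a Pearson r of -0.05, and -0.75 once the mean of each week was removed. Fabp3 and Fabp4 had -0.33 and -0.45, and Fabp4 and Fabp5 0.13 and 0.34. Within weeks, arrays with more Fabp3 tended to have less Fabp5, and these values include the diet differences given above.

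The genes whose levels ran most like Fabp3 over the 33 arrays were Ech1 (r = 0.92), a dienoyl-CoA isomerase, Epdr1 (0.89), an ependymin-related protein, Anxa3 (0.88), an annexin, St6galnac2 (0.86), a sialyltransferase, and Il1rn (0.86), the interleukin 1 receptor antagonist. With the mean of each week removed they were Akr1b10 (0.94), an aldo-keto reductase, Ech1 (0.93), Mreg (0.93), Crip2 (0.91) and Idh2 (0.90), a mitochondrial isocitrate dehydrogenase. Ech1 was in both sets, and its own diet average was 0.23.

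Fabp4 ran most like Cox7a2 (0.96), a subunit of cytochrome c oxidase, Fcf1 (0.95), 2300009A05Rik (0.95), Esd (0.95), an esterase, and Mrps18c (0.95), a mitochondrial ribosomal protein. With week means removed these were Prorsd1 (0.85), Tbc1d13 (0.80), Tmem141 (0.80), Zbtb8os (0.79) and Eif1b (0.79), so no gene was in both sets. Fabp5 ran most like Mgst2 (0.91), a microsomal glutathione transferase, Pcdhgc5 (0.81), Cenpx (0.81), Vps29 (0.79), a retromer subunit, and Agpat1 (0.77), an acyltransferase of lipid synthesis. With week means removed these were Apoc3 (0.82), an apolipoprotein, Mvk (0.82), mevalonate kinase, Slc25a1 (0.81), the mitochondrial citrate carrier, Trappc6a (0.81) and Ptgis (0.81), prostacyclin synthase. These 5 were all lower on high-fat diet, with diet averages of -0.34 to -0.997, a direction that choosing them by likeness to Fabp5 within weeks largely sets. Mvk was detected on 16 of the 33 arrays.

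Of the other members of the lipid binding family, 11 of 12 listed had a probe and 1 was measured. Rbp7, a retinol binding protein of vessels and fat, was 0.19 log2 units higher (SE 0.088, limma adjusted p = 0.112) and did not pass. Fabp1, Fabp2, Fabp6, Fabp7, Fabp9, Fabp12 and Pmp2, the liver, intestinal, ileal, brain, testis and myelin members with Fabp12, were detected on 0 arrays, as were Crabp1, Crabp2 and Rbp2. They were not well above background, and no difference is given for them.

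The genes that deliver fatty acids to these carriers moved both ways. Of 14 measured genes of uptake and activation, 2 rose, 4 fell and 8 did not pass, or 42.9% called against 27.1% of all genes. The median diet average was 0.03, against 0.00 over all genes. Acsl5 and Acsl3, which activate fatty acids with coenzyme A, fell by 0.33 and 0.24, and Got2, a mitochondrial aminotransferase also described as a fatty acid binding protein of the plasma membrane, fell by 0.13. Cav1, the caveolin of membrane pits, rose by 0.22. Lpl, the lipase that frees fatty acids from lipoproteins, had a diet average of 0.02 (limma adjusted p = 0.693). The probe of Cd36, a fatty acid receptor, was detected on 3 arrays and had 0.15 (limma adjusted p = 0.274). Of 16 genes of storage and lipolysis 2 rose and 14 did not pass, with a median of 0.01, and this 12.5% called lay below the 27.1% of all genes. The risers were Mgll, monoglyceride lipase, at 0.20, and Plin4, a droplet coat protein, at 0.18, whereas Lipe, hormone-sensitive lipase, had 0.06 (limma adjusted p = 0.448).

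Of 20 measured genes that burn the fatty acids 10 rose, 1 fell and 9 did not pass. That is 55% called, against 27.1% of all genes, of which 15.4% were higher, and the median was 0.13, against 0.00 over all genes. Acads, a short-chain acyl-CoA dehydrogenase, was up by 0.20, Decr1, a dienoyl-CoA reductase, by 0.25, and Cpt2 and Cpt1b, the carnitine palmitoyltransferases, by 0.16 and 0.20. Each of these is smaller than the 0.64 of Fabp3. Acaa1a, a peroxisomal thiolase, was the 1 that fell, at -0.10.

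PPAR receptors, which fatty acids activate and which drive Fabp3 and Fabp4 among other genes, did not pass. Pparg had a diet average of -0.06 (limma adjusted p = 0.332) and Ppara also -0.06 (limma adjusted p = 0.400). Among 13 measured receptors and partners 2 rose, 2 fell and 9 did not pass, with a median of -0.04, or 30.8% called, near the 27.1% of all genes. Rxra, the partner of the PPARs, fell by 0.29, Prdm16, a regulator of brown fat identity, fell by 0.24, Ppargc1b, a coactivator, rose by 0.17 and Cebpd rose by 0.12. Of 13 textbook PPAR targets outside the FABPs 5 rose, 2 fell and 6 did not pass, with a median of 0.09, or 53.8% called against 27.1%. Aqp7, a glycerol channel, rose by 0.28 and Cyp4b1, a cytochrome P450, by 0.39. Acot1, an acyl-CoA thioesterase, fell by 0.44.

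Markers of other cell types moved with diet on the same arrays, and in bulk tissue fewer cells of a type and less RNA per cell cannot be told apart. Of 12 measured macrophage markers 11 rose and 0 fell for the diet average, with a median of 0.48, against 15.4% of all genes called higher. Mrc1, the mannose receptor, rose by 0.58, the complement genes C1qa and C1qb by 0.44 and 0.53, and Csf1r, the receptor of a macrophage growth factor, by 0.35. At week 24 their mean level was 9.48 on high-fat diet and 8.01 on normal diet, and their summed intensity was 24210 to 26723 against 6516 to 7628. From week 2 to week 24 the mean differed by 0.24, 0.39, -0.08, 0.25 and 1.47 between the diets. The part of these cells in the results of the 3 genes was not tested.

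Of 4 measured white adipocyte markers 3 rose and 0 fell, with a median of 0.79, or 75% called against the 27.1% of all genes. The 3 were Lep, the leptin gene, Sncg, a synuclein, and Nnat, neuronatin, while Retn and Hoxc9 were detected on 0 arrays. Their mean was higher on high-fat diet by 0.39, 0.76, 0.48, 0.86 and 1.09 from week 2 to week 24, and their part was not tested. Summed intensity of this list at week 24 was 11835 to 12147 on high-fat diet and 3732 to 5230 on normal diet. At week 8, where the high-fat arrays were dim, it was 1545 to 2178 on high-fat diet and 2046 to 2510 on normal diet, opposite to the normalized difference. Of 12 endothelial markers 9 rose and 0 fell (75% called), with a median of 0.21, and their part was not tested. Icam2 rose by 0.44, Egfl7 by 0.25, Mmrn2 by 0.26 and Emcn by 0.24, all genes of vessel walls. Their summed intensity at week 24 was 27631 to 29235 on high-fat diet and 19728 to 21271 on normal diet. At week 8 it was 15806 to 21329 on high-fat diet and 24649 to 25606 on normal diet, again opposite to the normalized difference of 0.20. Of 8 brown adipocyte markers 0 rose and 1, Prdm16, fell by 0.24 (12.5% called), with a median of 0.00. Ucp1 had a diet average of 0.04 (limma adjusted p = 0.557). Mean levels of Ucp1, Cidea, Cox7a1 and Cox8b were 15.51, 15.73, 15.76 and 15.86, near the top of the scale. Whether that limited their differences was not tested. The same holds for Fabp3, which stood at 15.52 to 15.78 on the arrays of high-fat week 24.

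Striated muscle, which makes much Fabp3, lies beside this depot. Of 14 measured muscle markers 1 rose, Mb, the myoglobin gene, at 0.63, and 0 fell, with a median of 0.24, or 7.14% called against 27.1% of all genes. Their mean was 10.67 on high-fat and 9.75 on normal diet at week 2, and 11.20 on high-fat and 10.66 on normal diet at week 4. At week 8 it was 10.53 on high-fat and 10.76 on normal diet, and at weeks 20 and 24 the diets differed by 0.06 and 0.05. The high-fat arrays of week 24 were widely spread, at 10.23, 11.86 and 9.28 (SD 1.31), beside Fabp3 levels of 15.68, 15.78 and 15.52. The normal diet arrays of week 24 lay between 10.26 and 10.67 (SD 0.22). Summed muscle intensity at week 2 was 33627 to 74657 on high-fat diet and 24123 to 35757 on normal diet. With the muscle mean as a covariate Fabp3 was higher by 0.52 at week 2, 0.62 at week 4 and 0.95 at week 24. The average was 0.61, and each of these passed. No other list was used as a covariate. With week means removed, Fabp3 had a Pearson r of 0.34 with the muscle mean and -0.14 with the brown adipocyte mean. It had 0.89 with the white adipocyte, 0.77 with the macrophage and 0.77 with the endothelial mean. These values include the diet differences, and the part of any of these cells in the Fabp3 difference was not tested.

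**Figure D4:**
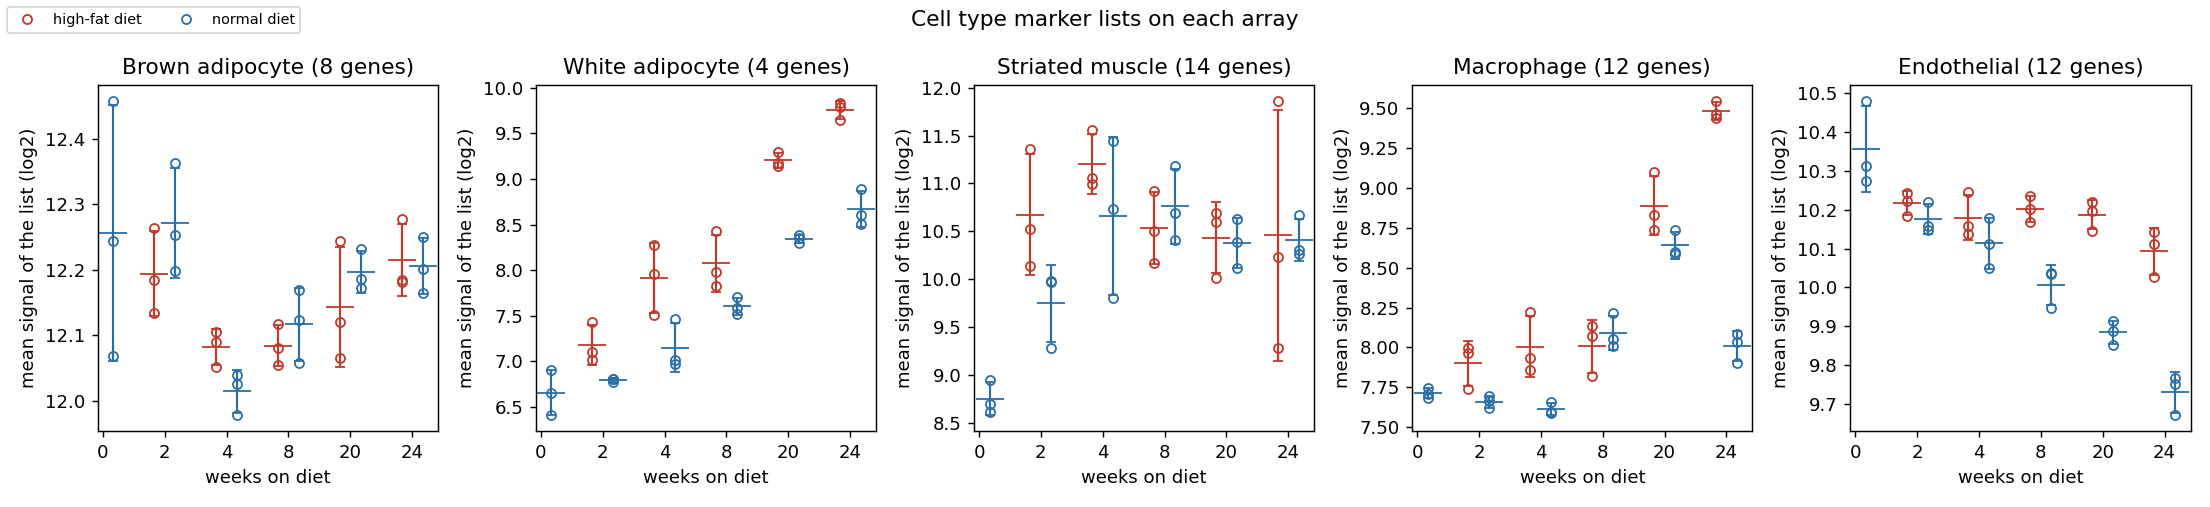
Mean signal (log2) of 5 cell type marker lists on each array by week on diet, high-fat diet in red and normal diet in blue, with group means and 1 SD (n = 3). The vertical scales differ between panels. The macrophage mean at week 24 is 9.48 on high-fat and 8.01 on normal diet, and the brown adipocyte mean differs by less than 0.1 between diets at each week.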

How the data were processed

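Per the labels' protocols, RNA was extracted with Trizol and RNeasy columns and biotin-labelled cRNA was made for the arrays. The authors deposited probe intensities, not normalized, exported with BeadStudio 3.1.3 per the submitters' processing notes. Beside them they deposited a detection p-value for each probe, from 936 steps. The deposited log2 values rank probes as the intensities do, share 1 distribution over arrays and were used as an alternative.

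Symbols came from the platform annotation, updated through Entrez identifiers for 34807 probes. There was 1 symbol for 34885 of the 45281 probes, more than 1 for 18 and none for 10378. Intensities were background-corrected (normexp, controls inferred from detection p-values), given an offset of 16, then quantile normalized, then put on the log2 scale. The offset and background treatment affect the size of changes of dim probes. Probes with detection p under 0.01 on at least 3 of 33 arrays were kept (17243), and the brightest probe per gene over all arrays left 9613 genes. A model with 1 coefficient per diet-by-week group was fitted in limma (22 residual, 4.13 prior degrees of freedom), with Benjamini-Hochberg adjustment over all 9613 genes and a threshold of 0.05. Scripts were tested on simulated data.

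The 3 genes and the gene lists were chosen with earlier results of these data known. From each list the up to 4 genes with the smallest p that passed were named, with Fabp1, Fabp2, Fabp6, Fabp7, Fabp9, Fabp12, Pmp2, Lpl, Cd36, Lipe, Pparg and Ppara whatever their result, and for each of the 3 genes the 5 most alike. Prdm16, Cpt1b, Cidea, Plin2, Angptl4, Gpihbp1 and Ppargc1a each stand in 2 lists and count in both. Acaa1a, Rbp7, Crabp1, Crabp2, Rbp2, Ucp1, Cidea, Cox7a1, Cox8b, Dio2, Retn and Hoxc9 were named outside this rule, after their values were seen. Array number limits the precision. Tools were limma 3.58.1 in R 4.3.3 with its data.table package (1.17.8), and numpy 2.4.6, pandas 2.3.3 and matplotlib 3.10.9 in Python 3.11.15.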

Additional observations from a re-analysis of the deposited data

How the results depend on the processing

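Of 1362 values of 33 results on the 3 genes under other settings, 1308 kept their direction and their side of the threshold, 41 lost a call, 10 gained one and 3 changed sign. The cause was not tested for any of these. Sign changed for Fabp4 late against early without week 24 (0.23), for Fabp4 at week 2 without normal week 2 replicate 3 (0.00813) and for Fabp5 at week 20 without high-fat week 20 replicate 2 (0.0101). The Fabp3 interaction gained a call with no background correction (adjusted p = 0.0210), with the authors' values (0.0200) and with the muscle covariate (0.0413). Fabp4 at week 8 lost its call with no detection filter (-0.53, adjusted p = 0.0569) and with the muscle covariate (-0.51, adjusted p = 0.0516). The Fabp4 average lost it without week 24 (-0.20) and without week 8 (-0.14), an alternative chosen after seeing the data, and Fabp4 over the normal diet weeks lost it without week 24 (0.156). Fabp5 minus Fabp4 lost its call with no background correction (-0.0639), a median shift (-0.26), the authors' values (-0.11), the muscle covariate (-0.26) and without week 24 (-0.21). From the 6 arrays of a week alone, Fabp3 did not pass at week 2 (0.59, adjusted p = 0.0524), week 4 (0.66, 0.0552), week 8 (0.46, 0.375) or week 20 (0.51, 0.0727), nor Fabp4 at week 8 (-0.53, 0.474).

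With 1 array left out, the ranges were 0.40 to 0.50 for Fabp3 at week 8, -0.17 to 0.00813 for Fabp4 at week 2, -0.70 to -0.34 for Fabp4 at week 8, -0.91 to -0.59 for Fabp5 at week 4, -0.38 to 0.0101 for Fabp5 at week 20, -0.35 to -0.23 for Fabp5 minus Fabp4, and 0.0311 to 0.188 for the adjusted p of the Fabp3 interaction. The replicate numbers showed no clear pairing of the samples, which does not show that they were unpaired. Of 15 pairs of same-numbered arrays 2 correlated above 0.1 (-0.11 to 0.13), both at week 24. The array of the same number was the best match in 5 of the 15, among them every pair of week 24. With the replicate number as a block the Fabp3 interaction had an adjusted p of 0.0481, and the other calls on the 3 genes did not change.

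Genes called for the diet average numbered 2602, or 1470 without week 24. The 613 of the interaction became 1, the 6400 over normal diet weeks 3503, the 6191 over high-fat weeks 2310 and the 5438 of late against early 3095. At week 2 the 183 became 119 with no filter, 91 with the muscle covariate and 64 from that week alone. At week 4 the 115 became 196 with no background correction, 180 from the authors' values and 1 from that week alone, and the 202 of week 8 and 449 of week 20 became 1 and 35. With 1 array left out the counts ran from 68 to 322 at week 2, 53 to 247 at week 4, 51 to 491 at week 8, 190 to 764 at week 20, 1259 to 2405 at week 24, where 1952 passed, and 367 to 866 for the interaction. The further Fabp5 probe passed no filter, so a fit on it was not run.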
